A study of Mus musculus with 12 samples.

Results

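Nucleoporins and nuclear transport receptors were examined in cultured mouse prostate cells on Illumina arrays. The genes were all those whose symbol begins with Nup and a number, Kpna or Kpnb, Ipo and a number, or Xpo followed by a number or t. Of 19031 genes named on the array, 38 met this rule, through 68 probes. 31 of them were bright enough to be tested, among 10112 genes tested in all. RNA came from cells labelled as prostate stem cells of the C57Bl/6 strain, taken from murine prostate tissue. A spheroid culture of mouse 1, in which cells grow as balls, was set against adherent layers of mouse 2 and of mouse 1. Each of the 3 cultures was measured on 3 replicate arrays and on 1 array of their pooled RNA. Only 1 spheroid culture was sampled, and age, sex and medium were not given in the labels. The labels do not say whether replicates were separate cultures, so the spread behind each p-value is that among these arrays and may be technical.

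As background, nuclear pore complexes are the gates through which proteins and RNA cross the nuclear envelope. Each pore is built from nucleoporins: outer rings made of the Y-shaped Nup107-Nup160 complex, an inner ring around Nup93, Nup155, Nup188 and Nup205, a channel lined by flexible phenylalanine-glycine repeats such as those of Nup62, and appendages on the cytoplasmic and nuclear faces. Cargo is carried by karyopherins. Importin alpha proteins (Kpna genes) recognise the classical nuclear localisation signal and ride on importin beta 1 (Kpnb1), other importins bind cargo directly, and exportins (Xpo genes) carry proteins or RNA out. The small GTPase Ran gives the direction, binding GTP in the nucleus and GDP in the cytoplasm. Pores are assembled both after mitosis and during interphase, so dividing cells make new ones in every cycle.

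Promoter windows of the genes were read apart from the array signal. RefSeq windows on GRCm38.p6, of 300 bases with 250 before and 50 after the start, were held for 30 of the 38 genes and 24 of the 31 tested. 12 of these genes are among the 15 called lower in the spheroid culture, described below in turn. 6 motifs of growth-related or housekeeping promoters were searched on both strands by exact letters. A gene counted if any of its windows held the letters. A site of the NRF1 type (GCGCA followed directly by its reverse complement) stood in 3 of these 12 genes (25.0%: Nup107, Nup62 and Xpo5) and in 1 of the 12 tested genes that were not called (8.3%: Nup50). It stood in 2.3% of the 8220 tested genes with a window. Counted by single windows and not by genes, it stood in 1.0% of all 32851. E2F-type letters (TTTCCCGC, TTTGGCGC, TTTCGCGC or TTTGCCGC) stood in 0 of the 12 called genes, against 4.8% of tested genes. The cell cycle element CHR (TTTGAA) stood in 16.7% of the 12, against 14.3% of tested genes, and CCAAT in 58.3%, against 43.2%. The E-box CACGTG stood in 8.3%, against 12%, and the ETS-type site CCGGAAG in 25.0%, against 20.2%. A match is only a match of letters, and shares over 12 genes are coarse.

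The 4 windows of tested genes with NRF1-type letters are shown, that of Nup50 among them as the gene not called, with the window of Kpna2, the importin alpha gene called lower, for contrast. Each is written 5′ to 3′ along the gene, and capitals mark the letters of any of the 6 motifs. Nup107 lies at chr10:117792656-117792955 on the minus strand, Nup62 at chr7:44815838-44816137 on the plus strand, Xpo5 at chr17:46202561-46202860 on the plus strand, Nup50 at chr15:84923178-84923477 on the plus strand and Kpna2 at chr11:106999476-106999775 on the minus strand.
Nup107: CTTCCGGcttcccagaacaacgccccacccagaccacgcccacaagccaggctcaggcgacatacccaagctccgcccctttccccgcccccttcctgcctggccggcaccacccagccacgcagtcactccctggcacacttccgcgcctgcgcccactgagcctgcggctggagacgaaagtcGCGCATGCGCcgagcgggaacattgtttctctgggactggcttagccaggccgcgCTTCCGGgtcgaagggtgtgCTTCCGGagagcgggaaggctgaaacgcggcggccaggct
Nup62: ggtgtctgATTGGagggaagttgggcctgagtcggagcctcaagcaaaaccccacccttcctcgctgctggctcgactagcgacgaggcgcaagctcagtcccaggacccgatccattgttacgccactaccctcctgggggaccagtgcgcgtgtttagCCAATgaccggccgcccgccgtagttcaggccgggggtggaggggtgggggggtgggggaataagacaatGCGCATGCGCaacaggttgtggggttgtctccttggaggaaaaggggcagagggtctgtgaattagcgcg
Xpo5: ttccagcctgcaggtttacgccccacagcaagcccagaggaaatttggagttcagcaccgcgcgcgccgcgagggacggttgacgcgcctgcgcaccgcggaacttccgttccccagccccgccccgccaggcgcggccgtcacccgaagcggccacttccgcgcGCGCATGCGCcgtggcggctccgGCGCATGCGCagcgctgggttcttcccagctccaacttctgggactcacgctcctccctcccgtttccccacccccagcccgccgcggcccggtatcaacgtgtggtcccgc
Nup50: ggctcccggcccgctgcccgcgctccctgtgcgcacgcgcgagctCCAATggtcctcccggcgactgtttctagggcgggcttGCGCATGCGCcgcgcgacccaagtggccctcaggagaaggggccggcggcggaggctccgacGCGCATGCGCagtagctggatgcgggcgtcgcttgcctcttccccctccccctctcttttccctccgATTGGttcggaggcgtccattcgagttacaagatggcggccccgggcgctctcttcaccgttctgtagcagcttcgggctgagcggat
Kpna2: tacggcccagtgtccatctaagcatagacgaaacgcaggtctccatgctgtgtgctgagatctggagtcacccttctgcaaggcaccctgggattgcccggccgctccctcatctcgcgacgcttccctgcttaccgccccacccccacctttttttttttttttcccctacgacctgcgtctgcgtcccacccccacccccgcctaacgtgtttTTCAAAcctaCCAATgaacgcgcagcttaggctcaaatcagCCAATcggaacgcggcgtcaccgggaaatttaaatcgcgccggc

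With the first transcribed base as 1, the NRF1-type site began at -65 in Nup107, at -20 in Nup62, at both -85 and -62 in Xpo5 and at both -167 and -105 in Nup50. The Kpna2 window held no such letters, and its matches were a CHR element at -35 and CCAAT boxes at -25 and 7.

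On the arrays, 15 of the 31 tested genes were lower in the spheroid culture than in the average of both adherent cultures and 0 were higher. Calls needed an adjusted p under 0.05 (limma, with Benjamini-Hochberg adjustment over all 10112 genes) together with a fold of 2 or more. Over all tested genes 13.4% were called lower and 13.1% higher, beside 48.4% and 0% of these 31. Of all calls 49.4% were higher, against 27.5% under median scaling, where the median of all genes was -0.35. With that scaling 22 of the 31 genes were called lower, beside 23% of all tested genes. In the main fit the median log2 difference was -0.89 over the 31 genes and -0.06 over all tested genes. At the adjusted p alone, 25 of the 31 were lower and 1 was higher, against 34.4% and 29.3% of all tested genes. All 3 spheroid arrays lay below all 6 adherent arrays for 22 of the 31 genes, against 28.6% of all tested genes. The reverse held for 1, Nup188, against 25% of all tested genes. Of the 28 genes detected on all 9 replicate arrays, 14 were called lower and 0 higher, with a median of -0.93. When only genes detected on all 9 were fitted, 14.4% of all of them were called lower and 12.6% higher. Part of the calls ended under other handling of the background. Without background correction 7 of the 15 were still called, and Ipo9, Kpna2, Nup155, Nup160, Nup37, Nup62, Xpo4 and Xpo5 were not. With the authors' normalized values 8 were, and the same genes other than Nup160 were not. Calls fell over the whole array too, to 5.86% of all tested genes lower without background correction and 6.85% with the authors' values. By the adjusted p alone 25 of the 31 genes were lower in both, beside 34.2% and 34.1% of all tested genes. No called gene changed sign in any setting run. Log2 values are on the scale after background correction with an offset of 16, which understates changes of dim genes. In these bulk samples, fewer cells of a type and less RNA per cell cannot be told apart.

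The lower levels were seen against each adherent culture. Against adherent mouse 2 the count was 14 lower and 0 higher, beside 13.6% and 13.2% of all tested genes, with a median of -0.87. By the adjusted p alone 23 were lower and 1 higher, beside 32% and 28%. Against adherent mouse 1, the culture of the same mouse, 15 were lower and 0 higher, beside 14.1% and 13.4% of all tested genes, with a median of -0.97. By the adjusted p alone 24 were lower and 0 higher, beside 32.2% and 26.6%. These comparisons share the spheroid arrays. Nucleoporins and receptors differed in their counts against the adherent average. There 10 of 15 nucleoporins (66.7%) were called lower, with a median difference of -1.40, and 5 of 16 receptors (31.2%), with a median of -0.72. Of all tested genes 13.4% were called lower in that comparison. Among the 16 receptors only Ipo5 was called lower without background correction or with the authors' normalized values. In these settings 5.86% and 6.85% of all tested genes were called lower. The mean log2 signal of the 15 nucleoporins was 7.52 to 7.60 on the spheroid arrays, 8.73 to 8.95 on the adherent mouse 2 arrays and 8.80 to 8.87 on the adherent mouse 1 arrays. For the 16 receptors it was 7.08 to 7.28, 7.76 to 7.89 and 7.81 to 7.94 in the same order of cultures. The difference between both kinds of gene was not tested.

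**Figure D1:**
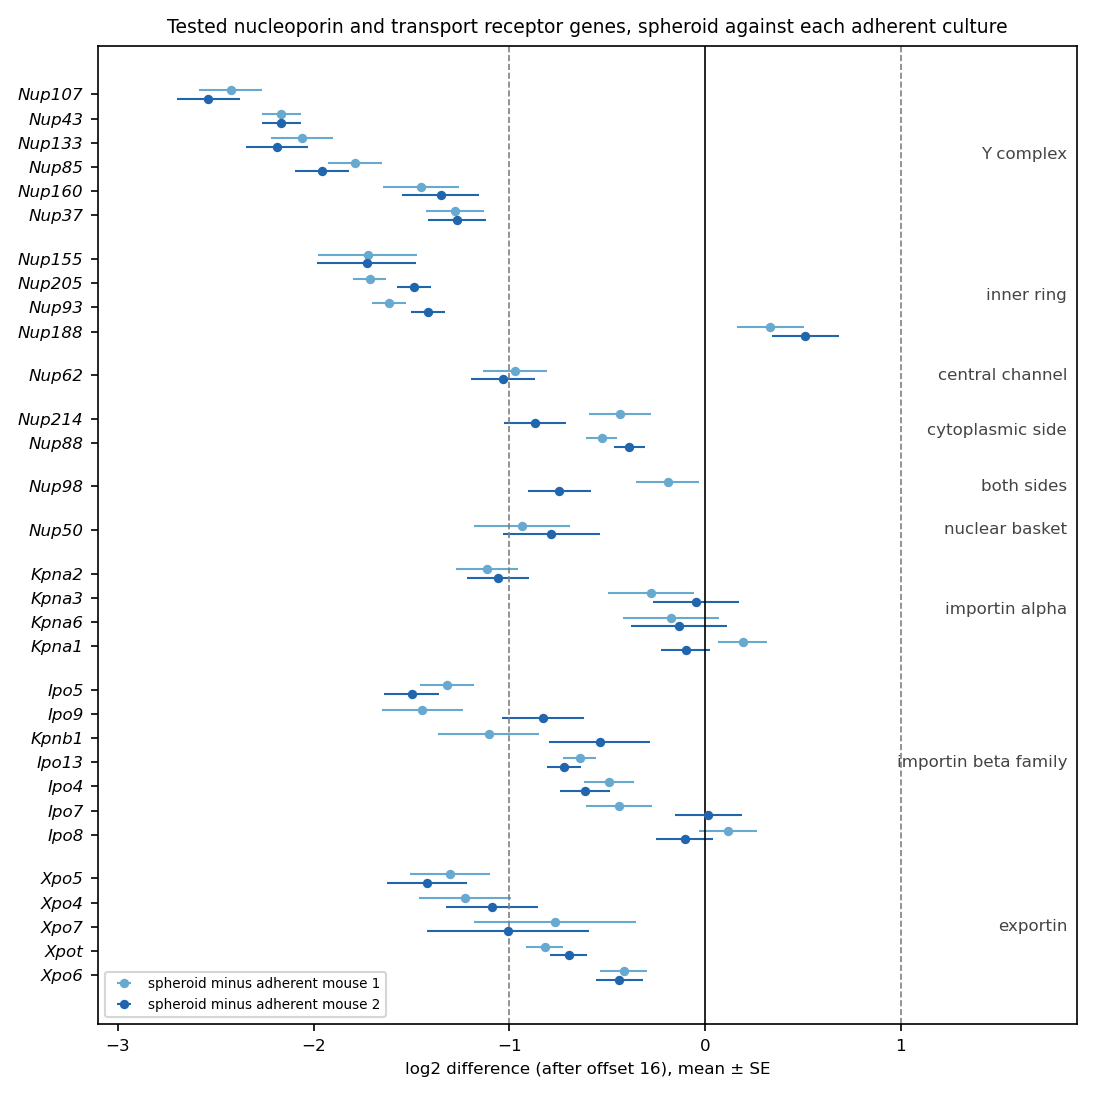
Log2 difference of each tested gene between the spheroid culture and adherent mouse 2 (dark blue) or adherent mouse 1 (light blue), with the standard error as a bar, grouped by role. Dashed lines mark a 2-fold difference. The 6 Y complex genes lie left of the 2-fold line against both cultures, and Nup188 lies right of 0.

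Proliferation genes moved with the same comparison, and their part in the result was not tested. Of 26 tested genes of replication and mitosis, 25 were called lower in the spheroid culture, beside 13.4% of all tested genes, with a median of -2.98. Their mean log2 signal was 6.80 to 6.85 on the spheroid arrays, 9.57 to 9.64 on the adherent mouse 2 arrays and 9.56 to 9.64 on the adherent mouse 1 arrays. Most squamous markers moved the other way, with 7 of 8 called higher, beside 13.1% of all tested genes. The remaining marker was lower, at -0.56, which passed the adjusted p but not the fold limit. Means over the 8 markers were 11.7 to 11.9, 7.99 to 8.34 and 7.60 to 7.77 in the same order. All 6 basal markers were detected on every replicate array, and their mean log2 signal was 11.94 to 12.01 in the spheroid culture, 11.39 to 11.71 in adherent mouse 2 and 11.50 to 11.67 in adherent mouse 1. Krt15 was called higher (2.73), Trp63 was at -0.56, and Krt5, Krt14, Itga6 and Itgb4 lay between -0.06 and 0.18. Of 4 tested luminal markers Krt19 was called higher (5.78) and Krt18 lower (-1.42), with Krt8 at -0.96 and Cd24a at 0.41. Of 8 fibroblast and smooth muscle markers 3 were tested: Acta2 was called lower (-4.00), Col1a2 was at -0.05 and Des at -0.10. Col1a1 and Pdgfra were detected on 0 arrays. The share of probes detected ran from 43.1% to 49.1% over the arrays. Replicate 1 of adherent mouse 2 stood apart. Its mean correlation across genes was 0.979 with the adherent mouse 1 arrays and 0.978 with its own culture. Values without this array are therefore given where it changes a call against the average. Without it, 15 genes were called lower against the average, with Xpo7 gained and Nup62 lost. Against adherent mouse 2 the count without it was 13, in place of 14, beside 14.3% of all tested genes, in place of 13.6%. Xpo7 was gained there too (-1.52), and the genes whose call was lost in that comparison are not listed.

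In the outer ring, all 6 tested genes with a Nup symbol fell. The Y complex they form curves the membrane at the pore and also sits at kinetochores in mitosis. Their median difference was -1.998, and all 6 were called lower. Counts by role, here and below, stand beside 13.4% of all tested genes called lower and 13.1% called higher. Nup107 read 6.59, 6.31 and 6.71 on the spheroid arrays, 8.74, 9.14 and 9.33 on the adherent mouse 2 arrays and 8.88, 8.92 and 9.07 on the adherent mouse 1 arrays (log2 signal, as for all values by array). The lowest adherent array was far above the highest spheroid array, and Nup107, a stem subunit, fell by 2.48 ± 0.14 (SE), 5.58-fold, at an adjusted p of 3.21e-09. Nup43 read 8.20, 8.40 and 8.56 on the spheroid arrays, 10.60, 10.54 and 10.53 on the adherent mouse 2 arrays and 10.55, 10.52 and 10.59 on the adherent mouse 1 arrays. The adherent arrays agreed closely for this small beta-propeller subunit, and the difference was -2.17 ± 0.09, 4.49-fold, at an adjusted p of 1.13e-10.

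Nup133 read 7.38, 7.40 and 7.37 on the spheroid arrays, 9.19, 9.60 and 9.93 on the adherent mouse 2 arrays and 9.29, 9.55 and 9.49 on the adherent mouse 1 arrays. Nup133 lies at the tip of the Y stem, and its spheroid arrays lay together and well below both adherent cultures, with a difference of -2.12 ± 0.14 (adjusted p 1.38e-08). Nup85 read 8.06, 8.34 and 8.13 on the spheroid arrays, 9.80, 10.32 and 10.27 on the adherent mouse 2 arrays and 9.86, 9.96 and 10.06 on the adherent mouse 1 arrays. This gene of a short arm of the Y differed by -1.87 ± 0.12 (adjusted p 1.29e-08), with no overlap between spheroid and adherent arrays. Nup160 read 7.11, 7.01 and 7.58 on the spheroid arrays, 8.14, 8.80 and 8.81 on the adherent mouse 2 arrays and 8.52, 8.81 and 8.73 on the adherent mouse 1 arrays. The Nup160 arm subunit differed by -1.40 ± 0.17 (adjusted p 7.62e-06), also without overlap. Nup37 read 6.98, 6.66 and 7.10 on the spheroid arrays, 8.15, 8.31 and 8.09 on the adherent mouse 2 arrays and 8.15, 8.06 and 8.37 on the adherent mouse 1 arrays. Nup37, which binds Nup160, differed least of the 6, by -1.27 ± 0.13 (adjusted p 1.23e-06), and its groups did not overlap.

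**Figure D2:**
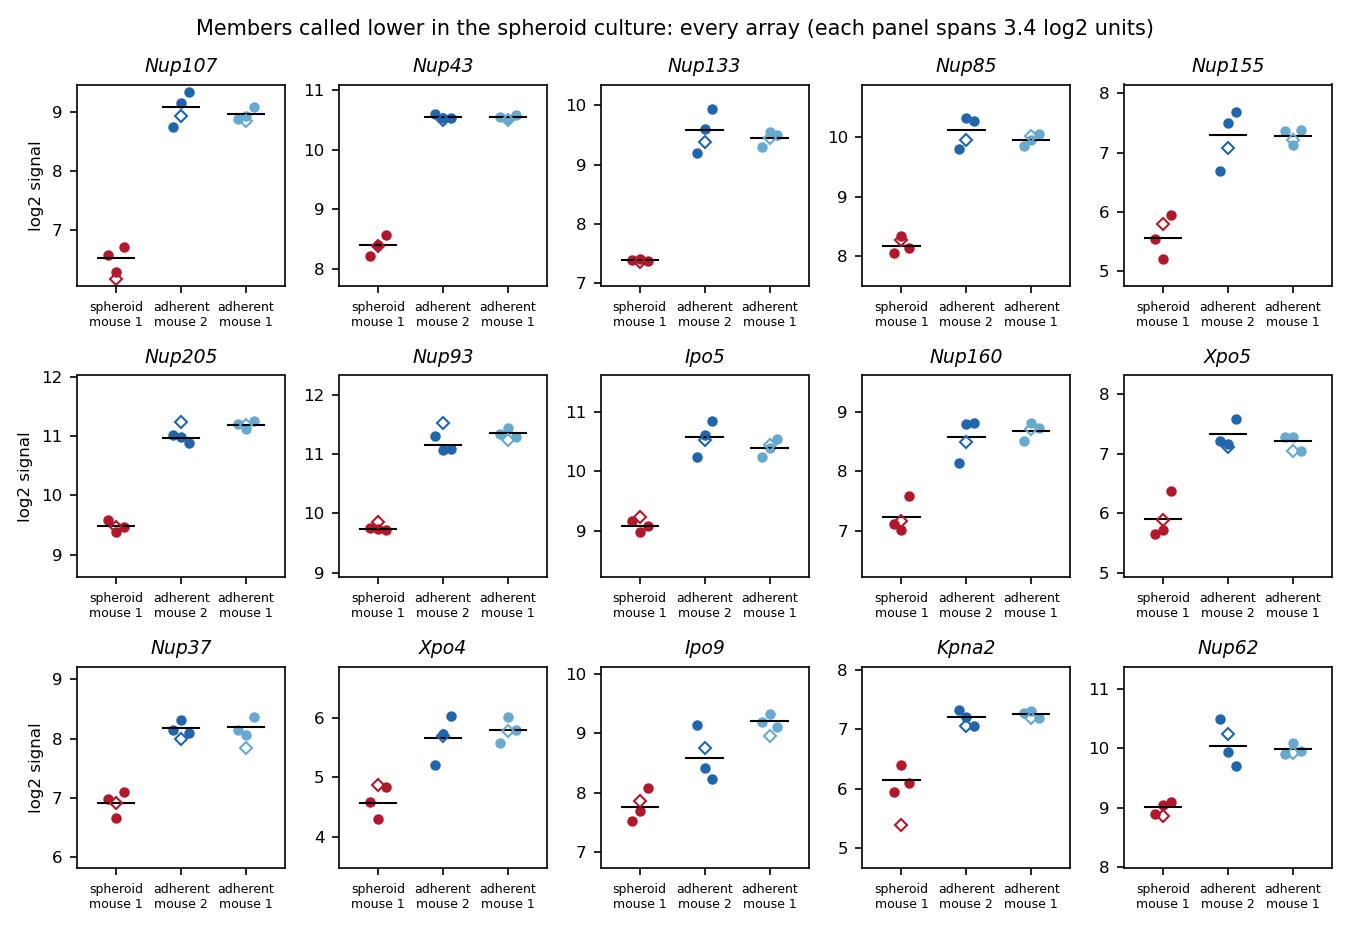
Log2 signal on every array for the 15 genes called lower, with the spheroid culture left of adherent mouse 2 and adherent mouse 1. Filled points are replicate arrays, bars their mean and open diamonds the pool of the replicates, which was not tested. For each gene the 3 spheroid points lie below the 6 adherent points.

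Inner ring genes split. Nup93, Nup155 and Nup205 were called lower and Nup188 was not. Nup205 read 9.58, 9.39 and 9.47 on the spheroid arrays, 11.02, 10.99 and 10.89 on the adherent mouse 2 arrays and 11.20, 11.13 and 11.26 on the adherent mouse 1 arrays. The large scaffold gene Nup205 fell by 1.60 ± 0.07, 3.03-fold (adjusted p 4.66e-10). Nup93 read 9.76, 9.73 and 9.72 on the spheroid arrays, 11.30, 11.07 and 11.08 on the adherent mouse 2 arrays and 11.34, 11.43 and 11.28 on the adherent mouse 1 arrays. For Nup93, the hub of the inner ring, the spheroid arrays were almost equal and all lower, with a difference of -1.51 ± 0.08 (adjusted p 9.89e-10). Nup155 read 5.54, 5.21 and 5.95 on the spheroid arrays, 6.69, 7.51 and 7.69 on the adherent mouse 2 arrays and 7.37, 7.13 and 7.38 on the adherent mouse 1 arrays. Nup155, which ties the ring to the membrane, spread more between arrays, with no overlap of spheroid and adherent arrays, and differed by -1.73 ± 0.22 (adjusted p 1.19e-05).

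Nup188 is the structural relative of Nup205 and occupies the alternative place beside Nup93. Nup188 read 5.16, 4.84 and 5.10 on the spheroid arrays, 4.48, 4.48 and 4.61 on the adherent mouse 2 arrays and 4.72, 4.76 and 4.62 on the adherent mouse 1 arrays. The spheroid arrays were the higher ones here, by 0.42 ± 0.15 (adjusted p 0.0243), which was under the 2-fold limit. The signal was near background: detection failed on all but 1 of the 3 arrays from adherent mouse 2 and succeeded on the other replicate arrays. On the pools the order turned, with 4.43 for the spheroid, 4.63 for the adherent mouse 2 and 4.73 for the adherent mouse 1 pool.

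The remaining 5 nucleoporins had differences between -1.002 and -0.46. Nup62 read 8.89, 9.04 and 9.10 on the spheroid arrays, 10.49, 9.93 and 9.70 on the adherent mouse 2 arrays and 9.90, 10.10 and 9.95 on the adherent mouse 1 arrays. Nup62, the channel protein whose repeats bind karyopherins, was called lower at -1.002 ± 0.14 (adjusted p 3e-05), on the 2-fold limit, with no overlap. Without spheroid replicate 1, adherent mouse 2 replicate 1 or adherent mouse 1 replicate 2 it read -0.94, -0.89 or -0.97 and was under the fold limit. On the cytoplasmic side, Nup214, which docks export complexes, differed by -0.65 (adjusted p 0.001) and its partner Nup88 by -0.46 (adjusted p 5.27e-05), both under the fold limit. Nup50, a basket protein that helps to release cargo from importin alpha, differed by -0.86 ± 0.21 (adjusted p 0.00315). Nup50 was called without spheroid replicate 1 (-1.03) or 2 (-1.04) and fell short without spheroid replicate 3 (-0.51). Nup98, whose gene also encodes the Y complex protein Nup96 as part of the same precursor, differed by -0.47 ± 0.14 (adjusted p 0.00989), and its groups overlapped. Against adherent mouse 2 the difference was -0.75 (adjusted p 0.00128), and against adherent mouse 1 it was -0.19 (adjusted p 0.33).

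Among importin alpha genes, 1 of the 4 tested was called lower. Kpna2 read 5.95, 6.39 and 6.09 on the spheroid arrays, 7.33, 7.21 and 7.06 on the adherent mouse 2 arrays and 7.28, 7.32 and 7.18 on the adherent mouse 1 arrays. Kpna2, the importin alpha that is high in dividing cells, fell by 1.09 ± 0.14, 2.12-fold (adjusted p 1.04e-05), with no overlap of spheroid and adherent arrays. Without spheroid replicate 1 the difference was -0.99 and under the fold limit. Kpna1 read 7.80, 8.15 and 8.09 on the spheroid arrays, 8.18, 8.14 and 8.02 on the adherent mouse 2 arrays and 7.81, 7.84 and 7.81 on the adherent mouse 1 arrays. For Kpna1 the cultures overlapped and the difference was 0.05 ± 0.11 (adjusted p 0.728), with the sign turned under median scaling (-0.44). Kpna3 read 5.13, 5.61 and 5.74 on the spheroid arrays, 5.67, 5.28 and 5.67 on the adherent mouse 2 arrays and 6.09, 5.66 and 5.56 on the adherent mouse 1 arrays. Kpna6 read 5.22, 6.08 and 6.08 on the spheroid arrays, 5.60, 6.03 and 6.14 on the adherent mouse 2 arrays and 6.11, 5.77 and 6.03 on the adherent mouse 1 arrays. Both overlapped between cultures, with -0.16 ± 0.19 for Kpna3 and -0.15 ± 0.21 for Kpna6 (adjusted p 0.477 and 0.544). These are further adaptors for the classical import signal, and Kpna4 and Kpna7 were too dim to be tested. Whether Kpna2 differed more than the other 3 was not tested.

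Kpnb1 read 7.09, 7.23 and 7.60 on the spheroid arrays, 8.57, 7.47 and 7.50 on the adherent mouse 2 arrays and 8.19, 8.70 and 8.35 on the adherent mouse 1 arrays. Kpnb1 is the carrier that importin alpha rides on, and replicate 1 of adherent mouse 2 was high while the other 2 arrays of that culture overlapped the spheroid arrays. The difference was -0.82 ± 0.23 (adjusted p 0.0059) and was not called. Against adherent mouse 2 it was -0.54 (adjusted p 0.0905), and against adherent mouse 1 it was -1.11 (adjusted p 0.00232), which was called. Without replicate 1 of adherent mouse 2 the difference against that culture was -0.18 (adjusted p 0.346).

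**Figure D3:**
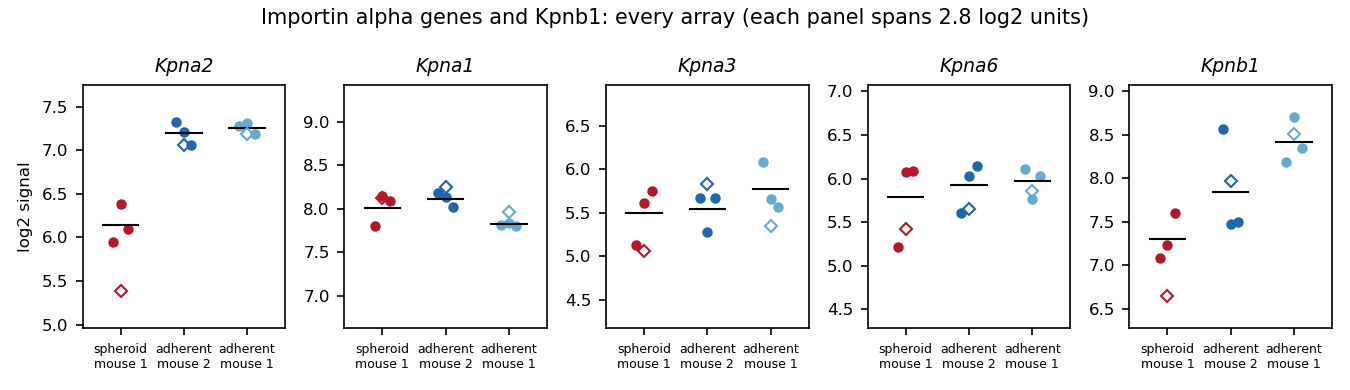
Log2 signal of the 4 tested importin alpha genes and Kpnb1 on every array (filled points, replicates; bars, means; open diamonds, pools), with the spheroid culture on the left of each panel. Kpna2 separates the spheroid arrays from the adherent ones, whereas Kpna1, Kpna3, Kpna6 and Kpnb1 overlap.

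Importins that bind cargo directly were mixed, with Ipo5 and Ipo9 called lower. Ipo5 read 9.17, 8.98 and 9.09 on the spheroid arrays, 10.25, 10.62 and 10.86 on the adherent mouse 2 arrays and 10.24, 10.39 and 10.55 on the adherent mouse 1 arrays. Ipo5, a carrier of ribosomal proteins and histones, fell by 1.41 ± 0.12, 2.65-fold (adjusted p 2.46e-07), with no overlap. Ipo9 read 7.52, 7.70 and 8.07 on the spheroid arrays, 9.13, 8.42 and 8.23 on the adherent mouse 2 arrays and 9.19, 9.33 and 9.10 on the adherent mouse 1 arrays. Ipo9, a histone carrier, fell by 1.14 ± 0.18 (adjusted p 8.88e-05) against the average. It differed by -0.83 against adherent mouse 2, under the fold limit, and by -1.44 against adherent mouse 1. Ipo13, which both imports and exports cargo, differed by -0.68 (adjusted p 2.95e-06) and Ipo4 by -0.55 (adjusted p 0.000693), under the fold limit. Ipo7 differed by -0.21 and its close relative Ipo8 by 0.01 (adjusted p 0.228 and 0.969), and both overlapped between cultures. Ipo7 differed by 0.02 against adherent mouse 2 (adjusted p 0.939) and by -0.44 against adherent mouse 1 (adjusted p 0.04), where its arrays did not overlap. Under median scaling Ipo8 turned to -0.45.

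Of 5 tested exportins, Xpo5 and Xpo4 were called lower. Xpo5 read 5.65, 5.71 and 6.37 on the spheroid arrays, 7.22, 7.17 and 7.59 on the adherent mouse 2 arrays and 7.29, 7.29 and 7.05 on the adherent mouse 1 arrays. Xpo5 exports microRNA precursors, and its spheroid arrays lay below all adherent ones, with a difference of -1.36 ± 0.18, 2.57-fold (adjusted p 1.39e-05). Xpo4 read 4.58, 4.30 and 4.84 on the spheroid arrays, 5.21, 5.74 and 6.04 on the adherent mouse 2 arrays and 5.59, 6.01 and 5.79 on the adherent mouse 1 arrays. Xpo4, whose cargo includes the translation factor eIF5A, differed by -1.16 ± 0.20 (adjusted p 0.000222). It was detected on 1 of 3 spheroid arrays and entered the test through the adherent cultures, where it is higher, so its call is given as a description. The tRNA exporter Xpot differed by -0.76 (adjusted p 2.51e-06) and the actin exporter Xpo6 by -0.43 (adjusted p 0.00294). Xpo7 differed by -0.89 ± 0.36 (adjusted p 0.0451), with overlapping arrays and detection on 2 of 3 spheroid and 2 of 3 adherent mouse 1 arrays. It entered the test only through adherent mouse 2, where its mean is highest, so its p-values and calls are given as a description. It was called without adherent mouse 2 replicate 1 (-1.14) or adherent mouse 1 replicate 3 (-1.09), and its adjusted p was 0.0692 to 0.177 without any of the other 7 arrays. Xpo1, the main exporter of proteins with leucine-rich signals, was not tested: its better probe was detected on 1 of 3 arrays in each culture. Kpna4, Kpna7, Nup153, Nup210, Nup210l and Nup62cl also passed on no probe, so nothing is said of their direction.

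Different probes of a gene did not always agree. 10 of the 31 genes had more than 1 passing probe, and each gene was represented by its brightest. A further Nup133 probe gave -2.13, but 2 others gave -0.25 and -0.20 and were not called. The other Nup160 probe gave -0.10 and the other Xpo4 probe -0.42, neither called, whereas the other Ipo5 probe gave -1.21 and was called. For Nup155 the other probes gave -1.20, called, and -0.99, not called. Nup88 (-0.46) had a probe of the other sign at 0.27 and others at -0.66 and -0.67. The other Nup50 probes gave -0.21 and -0.74, beside -0.86 for the brightest, the other Nup98 probe -0.34 and the other Xpo7 probe -0.26, none called. In Xpot the less bright probe was the one called, at -1.35. With the mean of the passing probes in place of the brightest, Nup160 (-0.75) and Xpo4 (-0.79) were under the fold limit. Probe sequences were not used here, so which transcript each probe reads is not given.

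**Figure D4:**
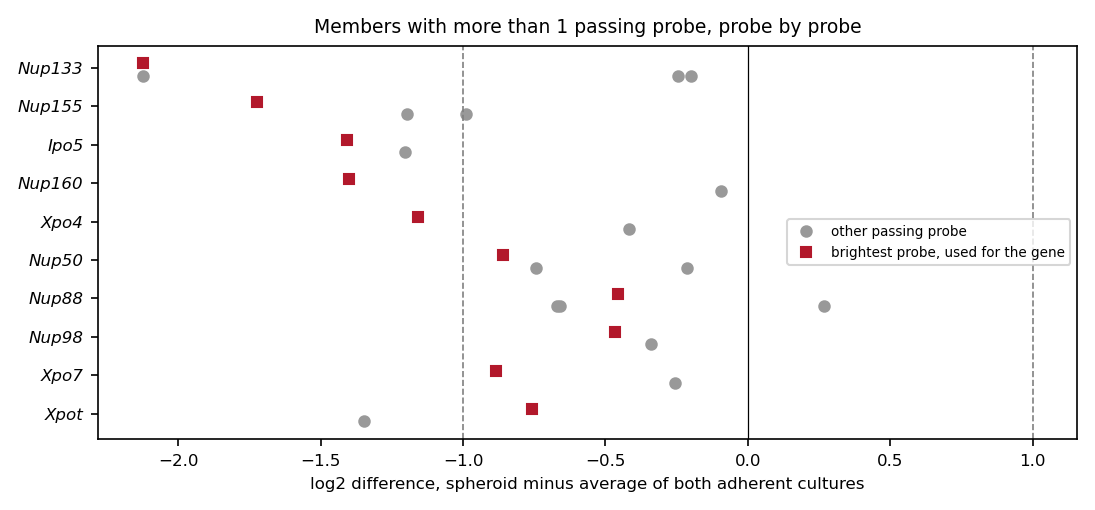
Log2 difference between the spheroid culture and the adherent average for every passing probe of the 10 genes with more than 1. Red squares are the brightest probe, which stands for the gene, and grey points the others. The Nup133 probes spread from -2.13 to -0.20.

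Genes of the same machinery outside the symbol rule were read from lists, with log2 differences in brackets. Ran read 6.61, 7.01 and 6.89 on the spheroid arrays, 8.74, 9.10 and 9.31 on the adherent mouse 2 arrays and 8.63, 8.59 and 8.61 on the adherent mouse 1 arrays. Ran, the GTPase that sets the direction of transport, fell by 2.00 ± 0.13, 3.99-fold (adjusted p 2.06e-08), with no overlap. Of 8 tested Ran cycle genes 4 were called lower (50%) and 1 higher (12.5%), beside 13.4% and 13.1% of all tested genes, with a median of -0.83. The nucleotide exchange factor Rcc1 (-2.05), the Ran-binding protein Ranbp1 (-1.997), Ran and the GTPase activator Rangap1 (-1.08) were the lower ones. Ranbp10 (1.30) was higher. By the adjusted p alone 5 of the 8 were lower and 3 higher, beside 34.4% and 29.3% of all tested genes. The adherent cultures did not give the same picture. Against adherent mouse 2, 4 were called lower and 2 higher, with differences up to 2.57, and against adherent mouse 1, 4 and 1. Between adherent mouse 2 and adherent mouse 1, 1 of the 8 was called lower, beside 1.05% of all tested genes, and the lowest difference was -3.23. Of 11 other pore proteins 5 were called lower (45.5%) and 0 higher, with a median of -0.97. They were the membrane anchors Ndc1 (-2.32) and Pom121 (-1.32), the Y complex partner Seh1l (-1.43), the mRNA export factor Rae1 (-1.18) and Ahctf1 (-1.04), which seeds pores on chromatin. Sec13, a further Y complex subunit, differed by -0.52 (adjusted p 1.25e-05) and was under the fold limit. Ranbp2, the large cytoplasmic filament protein, differed by -0.15 (adjusted p 0.425).

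Of 10 other transport receptors 2 were called lower (20%), a share near the 13.4% of all tested genes. They were Cse1l (-1.98), which returns importin alpha to the cytoplasm, and Nxt1 (-1.48), a cofactor of mRNA export, and the median was -0.47. By the adjusted p alone 7 of the 10 were lower and 0 higher, beside 34.4% and 29.3% of all tested genes. In the lamina and envelope list of 14 tested genes, 5 were called lower (35.7%) and 1 higher (7.14%), with a median of -0.38. The lamins Lmnb1 (-2.70), Lmnb2 (-1.94) and Lmna (-1.04) fell, with the chromatin tethers Lbr (-1.96) and Tmpo (-1.73). Sun2, which links the lamina to the cytoskeleton, was 1.95 higher. By the adjusted p alone 7 of the 14 were lower and 4 higher, beside 34.4% and 29.3% of all tested genes.

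**Figure D5:**
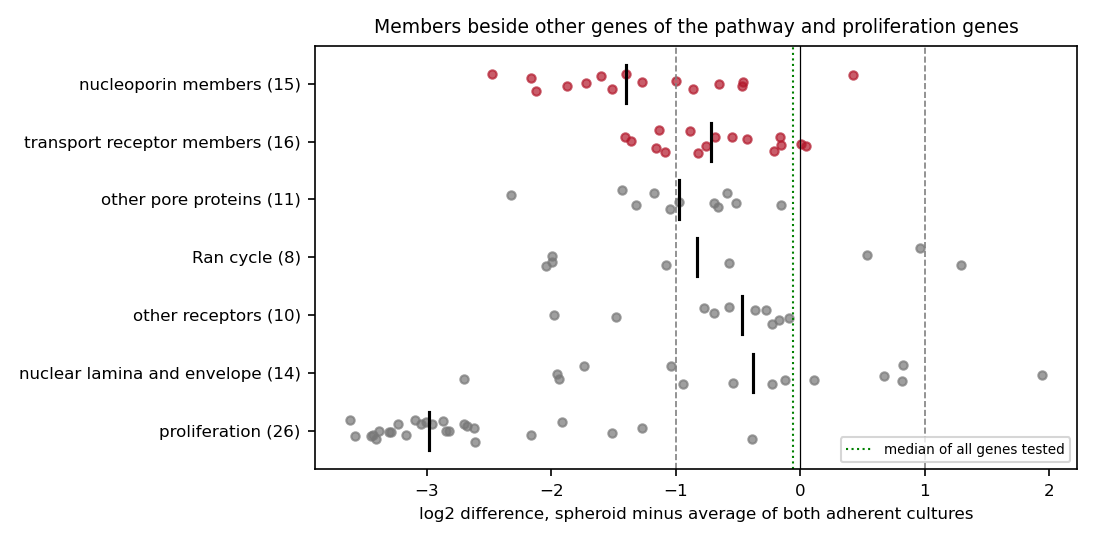
Log2 difference between the spheroid culture and the adherent average for each tested gene, by list, with the number tested in brackets. Black bars are medians and dashed lines 2-fold. The medians run from -2.98 for proliferation genes to -0.38 for the nuclear lamina and envelope, with -1.40 for nucleoporins.

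At the 2-fold limit and at the unadjusted p, counts of these genes between the adherent cultures were near the shares of all tested genes. Between adherent mouse 2 and adherent mouse 1, 0 of the 31 genes were called higher and 0 lower, beside 1.41% and 1.05% of all tested genes, and the median difference was 0.00. At an unadjusted p under 0.05 the count was 8 in either direction (25.8%), beside 28.2% of all tested genes. Nup98 alone passed the adjusted p, at 0.55 ± 0.16 (adjusted p 0.0389), against 6.43% of all tested genes that were higher by this criterion (6.92% were lower). Nup98 read 6.92, 6.64 and 6.64 on the spheroid arrays, 7.20, 7.63 and 7.61 on the adherent mouse 2 arrays and 6.82, 6.96 and 7.002 on the adherent mouse 1 arrays. The adherent mouse 2 arrays were all above the adherent mouse 1 arrays. Its adjusted p was under 0.05 in 10 of 20 alternative settings, from 0.00142 to 0.158. The setting without the fold limit is among these 10 and repeats the main fit, so its adjusted p could not differ.

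This comparison turned on 1 array. Without replicate 1 of adherent mouse 2, 10 genes passed the adjusted p, 5 in each direction, beside 18.6% of all tested genes lower and 15.8% higher in the same fit, so the count of these genes was near that of the whole array. Still 0 were called at 2-fold. Kpnb1 was then -0.93 (adjusted p 0.000189), Ipo9 -0.89 (adjusted p 5.62e-05) and Ipo7 -0.54. Nup98 was then 0.69 and Nup214 0.56, and the other 5 genes, Nup93, Nup205, Nup133, Nup85 and Ipo5, lay between -0.28 and 0.34. With all arrays Kpnb1 was -0.57 (adjusted p 0.175) and Ipo9 was -0.62 (adjusted p 0.0692).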

How the data were processed

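The authors deposited a non-normalized table of mean bead intensity with a detection p-value for each probe and array, per the file headers, and a second table of normalized intensity on a linear scale. The scanner software and the normalization method are not stated in any source used here. A column name of adherent mouse 2 occurs on 2 arrays of the non-normalized values, so these arrays, listed after replicate 1, have no replicate number, and 0 value columns belonged to no sample. RNA was made into biotinylated cRNA, per the labels' protocols. With limma 3.58.1 in R 4.3.3, neqc subtracted background inferred from the detection p-values, added an offset of 16 and quantile-normalized log2 values over 12 arrays. Probes passed if, in 1 culture or more, every one of the 3 replicate arrays had a detection p under 0.05. Each gene took its brightest passing probe. 31 of the 38 genes passed, 28 of them detected on all 9 replicate arrays. lmFit and eBayes with an intensity trend were run on the 9 replicate arrays, with Benjamini-Hochberg adjustment over 10112 genes. Pools were normalized along but not fitted. The genes and lists were chosen with earlier results of these data known. Values by array were given for the 14 called genes with the largest difference, the importin alpha genes, Kpnb1 and Ran by a fixed rule, and for Nup62, Nup188 and Nup98 after their values were seen. Gene names came from the platform annotation, and 31 of 31 tested genes matched RefSeq by Entrez identifier under the same symbol. Alternatives in scaling, background, offset, filter, probe choice, spread model, fold limit, pools, replicate block and single arrays were run. The number of arrays limits the precision.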

Additional observations from a re-analysis of the deposited data

How the results depend on the processing

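Counts of lower genes moved under several settings. The settings below give counts called lower against the adherent average, adherent mouse 2 and adherent mouse 1. Without background correction they were 7, 7 and 8, beside 5.86%, 5.92% and 6.34% of all tested genes. With the authors' normalized values the counts were 8, 7 and 9, beside 6.85%, 6.82% and 7.36%. With the replicate block on those values the counts were 8, 7 and 9 again. With the adjusted p alone the counts were 25, 23 and 24, beside 34.4%, 32% and 32.2% of all tested genes. In the same order 1, 1 and 0 were higher, and 1 was higher between adherent mouse 2 and adherent mouse 1. Median scaling gave 22, 24 and 19, beside 23%, 26.3% and 20.7% of all tested genes. In the main fit these shares were 13.4%, 13.6% and 14.1%. Median scaling moved the median of all genes to -0.35 and 27.5% of all calls were higher, against 49.4%. Cyclic loess gave 11, 11 and 13, beside 10.5%, 10.9% and 10.7% of all tested genes. Against the average 57.9% of all calls were then higher, and Ipo9, Kpna2, Nup62 and Xpo4 were lost. The median of the 31 genes minus that of all genes was -0.83, and -0.90 and -0.84 under these scalings. Leaving out each array gave 14 to 16 against the average, 12 to 15 against adherent mouse 2 and 14 to 16 against adherent mouse 1, with 0 called between the adherent cultures. Of all tested genes 13.4% to 13.7%, 13.4% to 14.3% and 14% to 14.3% were called lower in these fits, in the same order. Between the adherent cultures 0.87% to 1.82% of all tested genes were called lower and 1.22% to 1.9% higher. In the 6 arrays of spheroid and adherent mouse 1, the replicate block gave 15 lower, as did the same arrays without it, a fit added after seeing the data, and the block changed no count of calls. Same-numbered arrays of these cultures did not deviate together (correlations 0.0282, -0.04 and 0.0698). No called gene changed sign in any setting run. The causes of these moves were not tested. Slide as a block was not run, since the files give no slide. Dim genes such as Xpo4 and Nup155 are measured near background, and only 1 spheroid culture was sampled.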
